A study of Oryza sativa with 7 samples.

Results

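The transcriptome of unelongated culms of the rice mutant mir156defghi was compared with that of wild-type culms. The comparison covered all 23498 genes listed for this pair, of 26168 genes listed in any of the 4 comparisons of the series. The mutant carries CRISPR/Cas9 mutations in 6 of the genes that encode the microRNA miR156 (MIR156d, MIR156e, MIR156f, MIR156g, MIR156h and MIR156i) in Nipponbare, a japonica cultivar, and the wild type is Nipponbare. Both were grown in a paddy field and sampled as 20-day-old seedlings, and at this age the stem has not yet lengthened, so that its base holds the shoot apex, leaf bases and the nodes from which tillers and crown roots grow. The methods give 3 biological repeats per genotype, but each genotype has a single FPKM value per gene (fragments per kilobase of exon, scaled to the number of mapped reads), so no SD, test or p-value is given and every difference below describes these pooled values. The wild-type culms also served as the reference for unelongated culms of mir156abckl, which carries mutations in another MIR156 subfamily. The log2 ratios of those are set beside those of mir156defghi where a gene is described, the difference between the mutants was not tested, and neither comparison is independent of the other.

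In plants, miR156 is abundant in the juvenile phase and directs the cleavage and translational repression of mRNAs of SQUAMOSA PROMOTER BINDING PROTEIN-LIKE (SPL) genes. As miR156 declines with age, SPL transcription factors accumulate and drive the change from juvenile to adult growth, and in rice they also shape tillering, panicle branching and grain size. Gibberellin (GA) is the hormone that promotes stem elongation and germination. The study asked how miR156 and its targets relate to the GA pathway, so the GA genes were examined together with the SPL genes.

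The alleles listed for mir156defghi are shown to describe the mutated sequences. Of 12 lines listed for this genotype, the line that was sequenced is not given in the sources used here. The most frequent allele of each gene that is written without a marked deletion is printed below, and the capitals mark the stretch of 17 bases that all of them share on one strand or the other. No wild-type sequence was compared with them, so the altered bases are not marked.

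MIR156h: GACAGAAGAGAGTGAGCcacacgg

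MIR156f and MIR156g: GACAGAAGAGAGTGAGCacaacagcgg

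MIR156d, MIR156e and MIR156i: ccgtgtgGCTCACTCTCTTCTGTC

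The MIR156h allele was carried by 7 of the 12 lines, and the MIR156i allele, which is written on the opposite strand as its exact reverse complement, also by 7. The MIR156d and MIR156e alleles have the same letters as that of MIR156i and were found in 4 and 2 lines. The MIR156f allele was found in 1 line and the MIR156g allele, identical to it, in 2. The other lines mostly carried deletions: these were marked in 10 of 12 lines for MIR156f and for MIR156g, in 9 for MIR156e, in 7 for MIR156d, in 4 for MIR156h and in 1 for MIR156i. The MIR156 transcripts themselves were not analysed here.

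Between the genotypes, 22179 genes had an FPKM above 0 in both and at least 1 FPKM in the higher one. A gene was counted as past 2-fold where the ratio of mir156defghi to wild-type FPKM, with nothing added, was at least 2 or at most 0.5. By this count 1158 genes (5.22%) were higher and 1330 (6.0%) were lower in mir156defghi, and 249 and 267 of them were past 4-fold. The median log2 ratio was -0.02, and 47.2% of the genes were higher in the mutant. The FPKM values summed to 630971 in mir156defghi and 686964 in the wild type. The FPKM of UBIQUITIN, the reference gene of the authors' RT-qPCR, was 240 in mir156defghi and 342 in the wild type (log2 ratio -0.51).

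The width of the ratios depended on the level of the gene. Where the geometric mean of both FPKM values was below 1, the middle 90% of log2 ratios ran from -3.15 to 3.17, and 32.6% of 755 genes were past 2-fold higher. Between 30 and 100 FPKM the same range was -0.79 to 0.53, and 1.32% of 3643 genes were past 2-fold higher and 2.74% lower. Among the 223 genes above 300 FPKM, 1 was past 2-fold higher and 22 were lower.

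**Figure D1:**
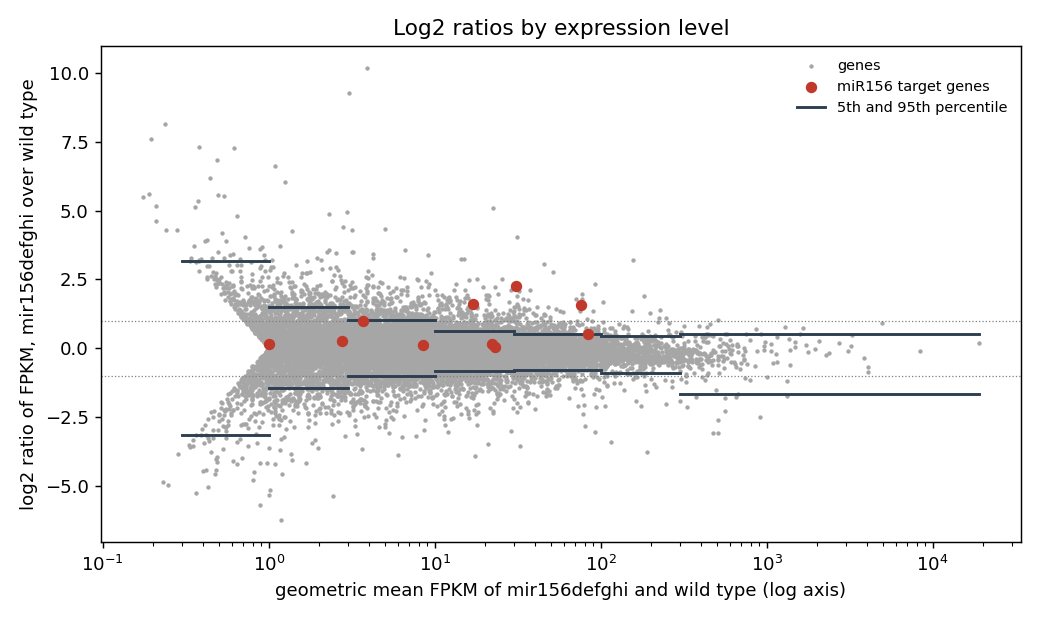
Log2 ratio of FPKM (mir156defghi over wild type) of 22179 genes against their geometric mean FPKM on a log axis. Red points are the 10 listed miR156 target genes, dark lines the 5th and 95th percentile in each range of level, and dotted lines the 2-fold limits. The target genes IPA1, SPL3 and SPL13 lie above the 95th percentile of their range.

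All 10 of the miR156 target genes that were listed had more FPKM in mir156defghi than in the wild type, and 4 of them were past 2-fold higher, where the share over all genes was 5.22%. These were IPA1, SPL13, SPL3 and SPL17. The 11th target, SPL7, was not listed. The median log2 ratio of the 10 genes was 0.38, against -0.02 over all genes, and their summed FPKM was 393 in mir156defghi and 196 in the wild type.

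IPA1 (LOC_Os08g39890, also OsSPL14, chromosome 8, 25274448 to 25278696), which represses tillering and promotes panicle branching, had 68.2 FPKM in mir156defghi and 14.1 in the wild type. This 4.85-fold difference (log2 ratio 2.28) was the widest of any SPL gene, and the log2 ratio of IPA1 in mir156abckl culms was 0.56. SPL13 (LOC_Os07g32170, chromosome 7, 19099674 to 19103294), a regulator of grain length, had 29.9 FPKM in mir156defghi and 9.78 in the wild type, a log2 ratio of 1.61, against 0.58 in mir156abckl. SPL3 (LOC_Os02g04680, chromosome 2, 2105725 to 2110544) was the most abundant SPL gene in the mutant, with 130 FPKM in mir156defghi and 44.2 in the wild type (log2 ratio 1.56, and 0.65 in mir156abckl).

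The log2 ratios of IPA1, SPL3 and SPL13 lay beyond the 95th percentile of genes of like level, which was 0.53 between 30 and 100 FPKM and 0.63 between 10 and 30. SPL17 (LOC_Os09g31438), which acts with IPA1 in panicle branching, had 5.23 FPKM in mir156defghi and 2.61 in the wild type. Its 2.01-fold difference lay just past the limit and inside the 95th percentile of 1.03 for genes of 3 to 10 FPKM. SPL12 had 99.7 FPKM in mir156defghi and 70.1 in the wild type, a log2 ratio of 0.51, and was at -0.04 in mir156abckl.

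The 5 other target genes differed little. SPL18 had 3.01 FPKM in mir156defghi and 2.53 in the wild type (log2 ratio 0.25). SPL16, a regulator of grain width, was near 1 FPKM in both genotypes, with 1.05 in mir156defghi and 0.95 in the wild type. The log2 ratios of SPL2, SPL11 and SPL4 were 0.17, 0.12 and 0.04. The order of the target genes by level also differed: IPA1 was the third most abundant target in mir156defghi after SPL3 and SPL12, while in the wild type SPL2 and SPL4, with 21.0 and 22.8 FPKM, also stood above it.

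Of the 5 SBP-box genes that are not targets of miR156, 4 were lower and 1 was higher in mir156defghi, with a median log2 ratio of -0.11. SPL15 was the one with the higher value, at 124 FPKM in mir156defghi and 90.7 in the wild type (log2 ratio 0.45). SPL19 (LOC_Os11g30370) had 7.64 FPKM in mir156defghi and 15.5 in the wild type, and was the only SBP-box gene past 2-fold lower (log2 ratio -1.02). SPL1, SPL6 and SPL9 had log2 ratios of -0.11, -0.01 and -0.14.

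**Figure D2:**
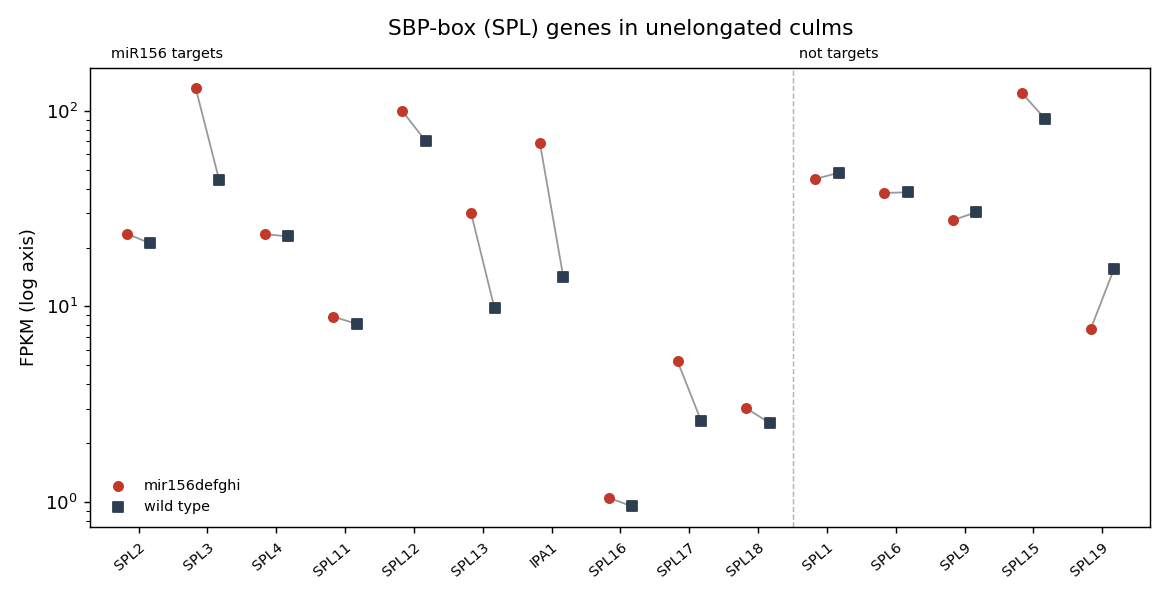
FPKM on a log axis of the 10 listed miR156 target genes and of the 5 other SBP-box genes, with 1 pooled value per genotype: mir156defghi (circles, left) and wild type (squares, right). Every target gene is higher in mir156defghi, most of all IPA1 with 68.2 against 14.1 FPKM, while SPL19 is lower.

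The GA genes were taken from lists of the paper, which the authors drew up on shoots and embryos of another mutant. Of the 58 genes 55 were listed here and 54 reached 1 FPKM, of which 6 were past 2-fold higher and 5 lower (11.1% and 9.26%), where 5.22% and 6.0% of all genes were, with a median log2 ratio of -0.13. At the end of the synthesis pathway GA3ox2, the enzyme that forms bioactive GA, was lower, and among the deactivating enzymes GA2ox6 and GA2ox4 were higher. The receptors and signaling genes were split.

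Of the 8 biosynthetic genes 6 were lower and 2 were higher in mir156defghi. GA3ox2 (LOC_Os01g08220) had 3.75 FPKM in mir156defghi and 10.96 in the wild type, a log2 ratio of -1.55, and was at -0.66 in mir156abckl. GNP1, a GA 20-oxidase, had 5.98 FPKM in mir156defghi and 9.95 in the wild type (log2 ratio -0.73). SD1, the GA 20-oxidase altered in semidwarf rice, differed less, with 5.62 FPKM in mir156defghi and 6.32 in the wild type (log2 ratio -0.17, and -0.89 in mir156abckl).

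The early steps of GA synthesis showed ratios closer to 1. CPS1, KO2 and KAO, which act at successive steps, had log2 ratios of -0.41, -0.31 and -0.04. KS1, the ent-kaurene synthase, was the exception, with 16.3 FPKM in mir156defghi and 8.50 in the wild type (log2 ratio 0.94, and 0.56 in mir156abckl). GA20ox4 was past 2-fold higher, at 1.01 FPKM in mir156defghi and 0.50 in the wild type, a level at which ratios spread widely.

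Among the 9 genes of GA deactivation, GA2ox6 (LOC_Os04g44150), a GA 2-oxidase, had 2.56 FPKM in mir156defghi and 0.49 in the wild type (log2 ratio 2.39, and 1.25 in mir156abckl). GA2ox4 (LOC_Os05g43880) had 3.83 FPKM in mir156defghi and 1.67 in the wild type (log2 ratio 1.19, and 0.90 in mir156abckl). Its log2 ratio was 0.85 with 1 FPKM added to both genotypes, and it lay inside the 95th percentile of 1.51 for genes of 1 to 3 FPKM. The other GA 2-oxidases that reached 1 FPKM, GA2ox3, GA2ox7, GA2ox8 and GA2ox10, had log2 ratios of -0.35, -0.30, 0.05 and 0.00, and GA2ox9 stayed below 1 FPKM in both genotypes. EUI1, a cytochrome P450 that inactivates GA, had 1.22 FPKM in mir156defghi and 1.70 in the wild type (log2 ratio -0.48), while HOX12, a homeobox regulator of EUI1, had 79.75 FPKM in mir156defghi and 52.2 in the wild type (log2 ratio 0.61, and -1.23 in mir156abckl).

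The core of GA perception was near its wild-type level. GID1, the GA receptor, had 109 FPKM in mir156defghi and 84.4 in the wild type (log2 ratio 0.37), and GID2, the F-box protein that targets the DELLA protein for degradation, had 93.6 FPKM in mir156defghi and 125.6 in the wild type (log2 ratio -0.42). The locus of GID2 is taken from the paper's list, and the table gives it another description. The negative regulators SLR1, the DELLA protein of rice, and SPY had log2 ratios of -0.19 and 0.08.

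Of the 36 genes described as gibberellin receptors, 4 (11.1%) were past 2-fold higher and 5 (13.9%) lower, where 5.22% and 6.0% of all genes were. Their median log2 ratio was -0.13. LOC_Os01g06220 had 5.66 FPKM in mir156defghi and 22.0 in the wild type (log2 ratio -1.96, and -1.88 in mir156abckl). LOC_Os07g44890 and LOC_Os11g13570 were also lower, at -1.13 and -1.09. On the other side LOC_Os09g28690 had 48.0 FPKM in mir156defghi and 18.9 in the wild type (log2 ratio 1.34, and 1.17 in mir156abckl), and LOC_Os11g13670 had 19.3 FPKM in mir156defghi and 8.003 in the wild type (log2 ratio 1.27, and -0.03 in mir156abckl). Many of these genes are close copies that lie side by side and could share reads, so the split between neighbours is uncertain.

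**Figure D3:**
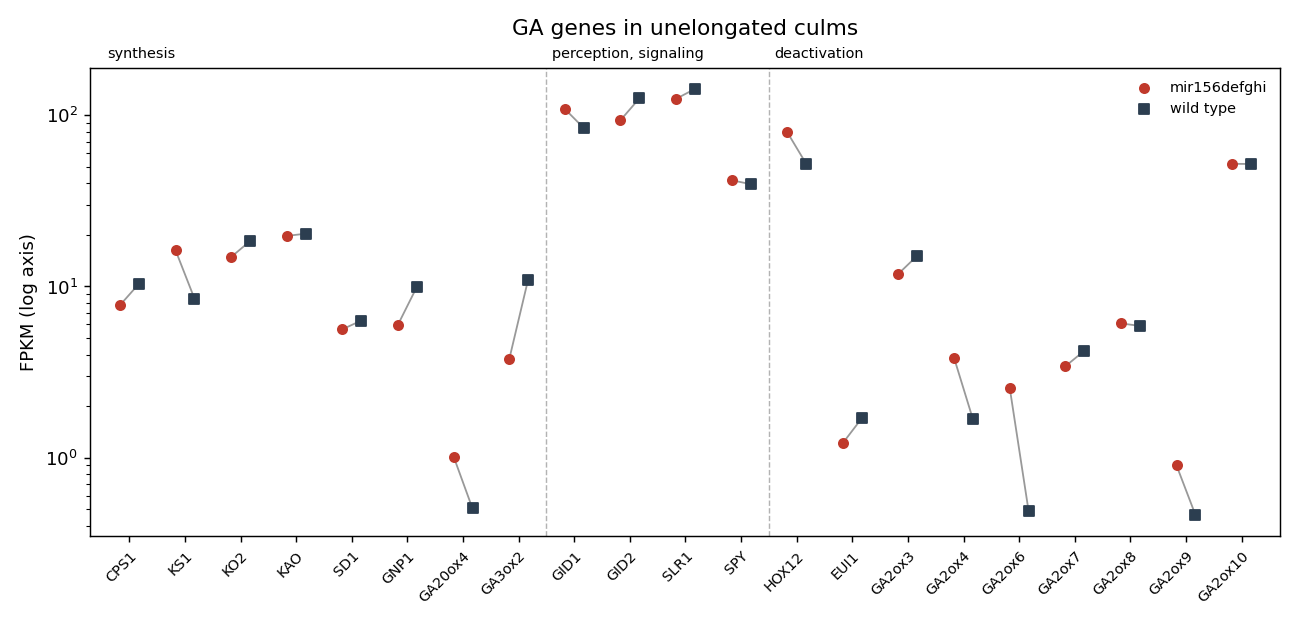
FPKM on a log axis of genes of GA synthesis, of GA perception and signaling, and of GA deactivation, with 1 pooled value per genotype: mir156defghi (circles, left) and wild type (squares, right). GA3ox2 is lower in mir156defghi (3.75 against 10.96 FPKM) and GA2ox6 and GA2ox4 are higher, while GID1, GID2, SLR1 and SPY stay within 2-fold.

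Genes were also grouped into 48 classes by words in their descriptions. The median log2 ratio was 0.3 or more in 3 classes and -0.3 or less in 11. The 3 were the photosystem and light-harvesting proteins, the YABBY transcription factors, and the genes with a DUF640 (ALOG) or DUF623 (ovate) domain. The 11 were the FT/TFL1 family, expansins, jasmonate genes, chitinases with thaumatins and PR proteins, cytochrome P450s, cytokinin oxidases, KNOX homeobox genes, cytosolic ribosomal proteins, WRKY transcription factors, class III peroxidases and genes of the lignin pathway.

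**Figure D4:**
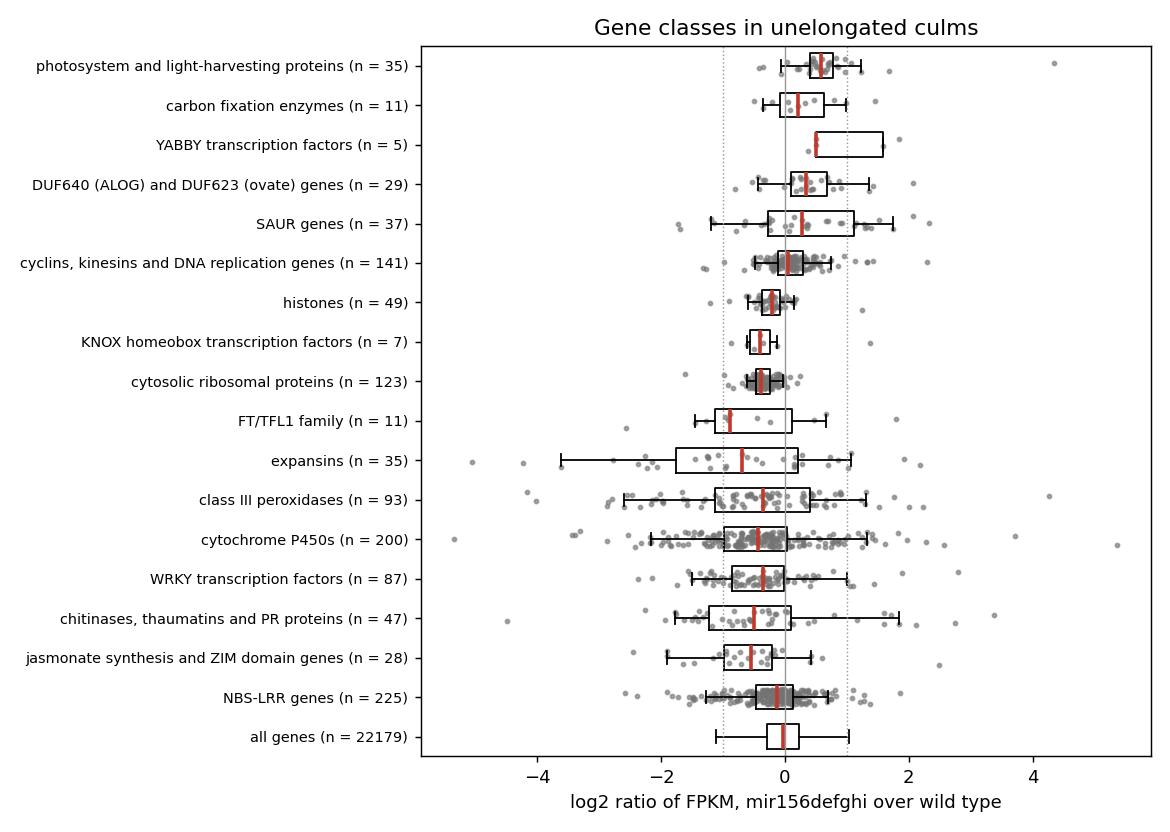
Log2 ratio of FPKM (mir156defghi over wild type) in 17 gene classes and over all 22179 genes. Points are genes, boxes the quartiles, red lines the medians and whiskers the 5th and 95th percentiles, and dotted lines mark the 2-fold limits. The medians run from 0.58 for the photosystem proteins to -0.88 for the FT/TFL1 family, against -0.02 over all genes.

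The FT/TFL1 family had the lowest median of the 48 classes. It holds florigens, which promote flowering, and their TFL1-like antagonists, which keep meristems indeterminate. Of its 11 members with at least 1 FPKM, 8 were lower in mir156defghi, with a median of -0.88. Past 2-fold, 3 of the 11 (27.3%) were lower and 1 (9.09%) higher, where 6.0% and 5.22% of all genes were. All 4 TFL1-like genes were lower. RCN1 (LOC_Os11g05470) had 10.5 FPKM in mir156defghi and 28.8 in the wild type (log2 ratio -1.45), and RCN3 (LOC_Os12g05590) had 2.29 FPKM in mir156defghi and 13.6 in the wild type (log2 ratio -2.57). RCN4 (LOC_Os04g33570) had 2.98 FPKM in mir156defghi and 7.21 in the wild type (log2 ratio -1.28), and RCN2 (LOC_Os02g32950) had 5.05 FPKM in mir156defghi and 9.32 in the wild type (log2 ratio -0.88). In mir156abckl the log2 ratios of RCN1, RCN2, RCN3 and RCN4 were 0.37, 1.36, -0.995 and 0.98.

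The florigen-like genes were mixed. osFTL1 (LOC_Os01g11940) had 4.83 FPKM in mir156defghi and 1.40 in the wild type (log2 ratio 1.79, and -0.48 in mir156abckl). osFTL12 (LOC_Os06g35940), the most abundant member, had 62.6 FPKM in mir156defghi and 122.8 in the wild type (log2 ratio -0.97). Among the MADS-box genes, many of which specify floral meristems and organs, 4 of 22 (18.2%) were past 2-fold higher and 1 was lower, against 5.22% and 6.0% of all genes. With at least 5 FPKM in the higher genotype, 1 of 13 (7.69%) was past 2-fold higher and 0 lower, against 3.27% and 4.46% of all genes. OsMADS18 (LOC_Os07g41370), of the AP1/FUL group that acts at the floral transition, had 12.9 FPKM in mir156defghi and 4.21 in the wild type (log2 ratio 1.61, and 0.54 in mir156abckl).

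The 7 KNOX genes belong to a family with members that maintain the shoot meristem, and their descriptions do not tell such members from others. Of these 7 genes, 6 were lower, none of them past 2-fold, and 1 was past 2-fold higher. The higher one, LOC_Os03g47016, had 1.91 FPKM in mir156defghi and 0.74 in the wild type (log2 ratio 1.37). Its log2 ratio of -0.53 in mir156abckl rests on 0.52 FPKM there and 0.75 in the wild type, both below 1 FPKM. The summed FPKM of the 7 KNOX genes was 187 in mir156defghi and 238 in the wild type. LOC_Os06g43860 had 39.6 FPKM in mir156defghi and 52.2 in the wild type (log2 ratio -0.40), and LOC_Os03g51710 had 7.10 FPKM in mir156defghi and 12.9 in the wild type (log2 ratio -0.87). All 5 YABBY genes were higher, with log2 ratios from 0.37 to 1.84 and a median of 0.50, which was 0.71 in mir156abckl. Of the 5 genes 2 (40%) were past 2-fold higher, where 5.22% of all genes were. These were LOC_Os02g42950, with 2.62 FPKM in mir156defghi and 0.73 in the wild type, and LOC_Os04g45330, with 1.33 FPKM in mir156defghi and 0.44 in the wild type. Both were at a level at which ratios spread widely. Of the 3 YABBY genes with at least 5 FPKM in the higher genotype, 0 were past 2-fold. LOC_Os03g44710 had 23.0 FPKM in mir156defghi and 16.2 in the wild type (log2 ratio 0.50).

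Of 29 genes with a DUF640 or DUF623 domain, 22 were higher and 3 (10.3%) were past 2-fold higher, where 5.22% of all genes were. LOC_Os04g43580, a DUF640 gene, had 65.7 FPKM in mir156defghi and 15.6 in the wild type, a log2 ratio of 2.07, and was at 1.62 in mir156abckl. LOC_Os01g54570, a DUF623 gene, had 9.20 FPKM in mir156defghi and 3.60 in the wild type (log2 ratio 1.35). Of the 10 growth-regulating factors 7 were higher and 1 was past 2-fold, with a median of 0.19 against 0.70 in mir156abckl.

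Genes of dividing cells stayed close to their wild-type level in mir156defghi. Of 141 cyclin, kinesin and DNA replication genes, 5 (3.55%) were past 2-fold higher and 2 (1.42%) lower, where 5.22% and 6.0% of all genes were. Their median log2 ratio was 0.06. In mir156abckl 34 genes of this class were past 2-fold higher and 1 was lower, with a median of 0.54, where 6.06% of all genes in that comparison were higher and 7.09% lower. Of 49 histone genes 42 were lower in mir156defghi, with a median of -0.22, and 1 was past 2-fold in each direction. The histone median in mir156abckl was 0.64, with 16 genes past 2-fold higher. The cytosolic ribosomal proteins were lower together by a small amount: 119 of 123 genes had a lower FPKM in mir156defghi, 1 of them past 2-fold, with a median of -0.39. Their summed FPKM was 17681 in mir156defghi and 22708 in the wild type, and their median in mir156abckl was -0.16. Abundant genes in general were also lower in mir156defghi, with a median of -0.20 over all genes with a geometric mean of 100 to 300 FPKM.

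Photosynthesis genes were higher. Of 35 photosystem and light-harvesting genes, 32 were higher in mir156defghi, with a median log2 ratio of 0.58. Past 2-fold, 4 of the 35 (11.4%) were higher and 0 lower, where 5.22% and 6.0% of all genes were. Their summed FPKM was 1610 in mir156defghi and 963 in the wild type. LOC_Os09g17740, a chlorophyll A-B binding protein, had 186.4 FPKM in mir156defghi and 57.85 in the wild type (log2 ratio 1.69, and 1.13 in mir156abckl). LOC_Os07g05365, described as the 10 kDa polypeptide of photosystem II, had 22.7 FPKM in mir156defghi and 1.12 in the wild type (log2 ratio 4.35, and -1.57 in mir156abckl). Of 11 genes of carbon fixation 8 were higher, with a median of 0.22, and LOC_Os12g19470, a small subunit of ribulose bisphosphate carboxylase, had 17.2 FPKM in mir156defghi and 6.31 in the wild type (log2 ratio 1.45). In such bulk samples, a change in the share of green cells and a change in RNA per cell cannot be told apart.

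Classes of cell wall genes each held members that were higher and members that were lower. Of 48 cellulose synthase and xyloglucan genes, which build the wall, 26 were higher, with a median log2 ratio of 0.12. Past 2-fold, 4 of the 48 (8.33%) were higher and 5 (10.4%) lower, where 5.22% and 6.0% of all genes were. Of 35 expansin genes, which loosen walls of growing cells, 15 (42.9%) were past 2-fold lower and 4 (11.4%) higher, where 6.0% and 5.22% of all genes were, with a median log2 ratio of -0.69. LOC_Os09g29710, the most abundant of those that were lower, had 176 FPKM in mir156defghi and 406 in the wild type (log2 ratio -1.21, and -3.02 in mir156abckl). LOC_Os04g46630 had 10.2 FPKM in mir156defghi and 49.0 in the wild type (log2 ratio -2.27, and 0.60 in mir156abckl), and LOC_Os10g40710 had 5.48 FPKM in mir156defghi and 24.3 in the wild type (log2 ratio -2.15, and 0.58 in mir156abckl). LOC_Os05g15690 was listed at 0 in mir156defghi, against 16.5 FPKM in the wild type.

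Other expansins stood apart from this. LOC_Os10g40720, the most abundant, had 601 FPKM in mir156defghi and 536 in the wild type (log2 ratio 0.16). LOC_Os03g60720 had 40.7 FPKM in mir156defghi and 10.7 in the wild type (log2 ratio 1.92, and 1.81 in mir156abckl), and LOC_Os02g42650 had 12.4 FPKM in mir156defghi and 2.73 in the wild type (log2 ratio 2.19, and 2.34 in mir156abckl). Many expansins with the lowest ratios were weakly expressed. Among the 26 with at least 5 FPKM in the higher genotype, 8 were past 2-fold lower and 4 higher, and the median was 0.06, so the negative median rests on the weakly expressed members.

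**Figure D5:**
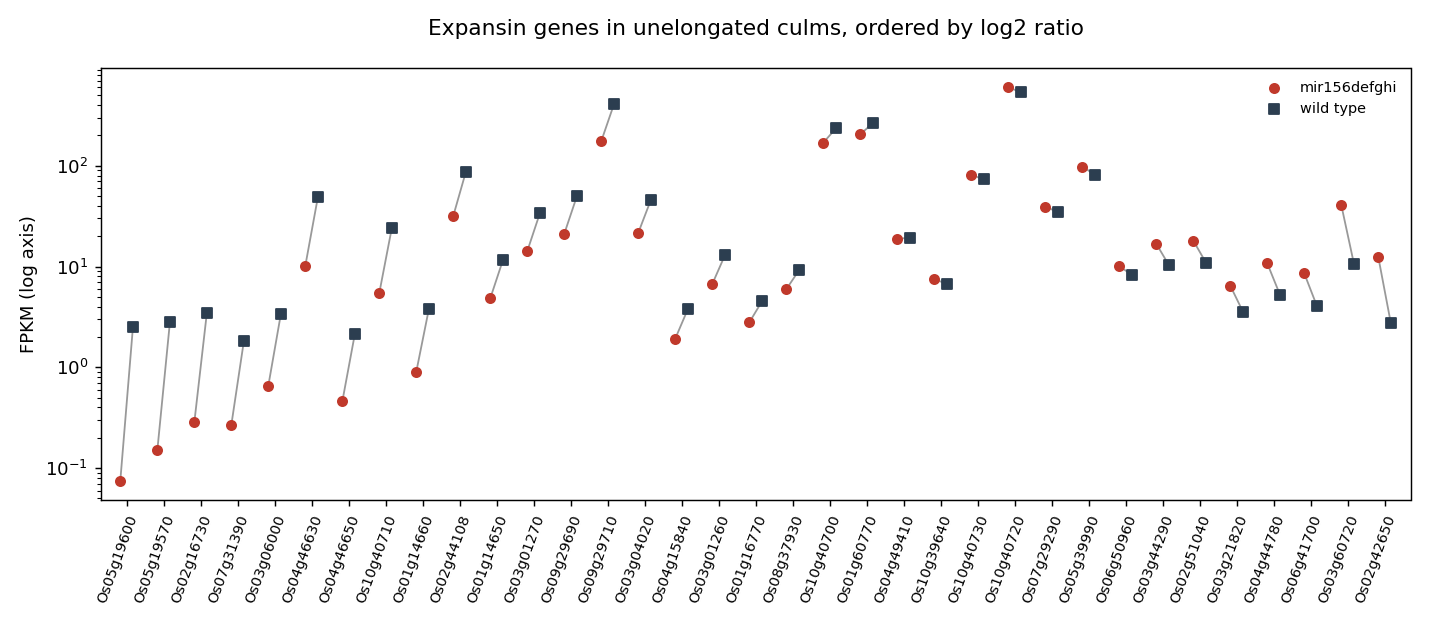
FPKM on a log axis of 35 expansin genes, ordered by log2 ratio, with 1 pooled value per genotype: mir156defghi (circles, left) and wild type (squares, right). The 15 genes at the left are past 2-fold lower in mir156defghi and the 4 at the right are past 2-fold higher, and the gaps are widest among genes under 5 FPKM.

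Of 93 class III peroxidases, secreted enzymes that crosslink or loosen walls, 29 (31.2%) were past 2-fold lower and 8 (8.60%) higher, where 6.0% and 5.22% of all genes were, with a median of -0.35. LOC_Os10g02070 had 5.33 FPKM in mir156defghi and 31.2 in the wild type (log2 ratio -2.55, and -4.66 in mir156abckl), and LOC_Os03g25330 had 2.08 FPKM in mir156defghi and 12.5 in the wild type (log2 ratio -2.59, and -0.24 in mir156abckl). LOC_Os03g13200 was on the other side, with 18.1 FPKM in mir156defghi and 3.83 in the wild type (log2 ratio 2.24). Of 26 aquaporins, water channels of the membrane, 5 (19.2%) were past 2-fold lower and 2 (7.69%) higher. Among the lower ones was LOC_Os02g44080 with 7.20 FPKM in mir156defghi and 34.9 in the wild type (log2 ratio -2.28, and 0.54 in mir156abckl).

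A small family named for the root cap also had lower values, and whether it marks that tissue here was not tested. The 6 genes described as root cap and LEA related, a list chosen after its values were seen, were all lower in mir156defghi, 5 of them past 2-fold, with log2 ratios from -5.68 to -0.57. Their summed FPKM was 25.7 in mir156defghi and 56.9 in the wild type, and none of them was at 0. LOC_Os05g47940 (RCLEA8) had 0.12 FPKM in mir156defghi and 6.35 in the wild type, with a log2 ratio of 1.12 in mir156abckl, where the median of the 6 genes was 0.58. Their part in the lower expansins, peroxidases and aquaporins was not tested.

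The classes linked to defence had medians below 0 in mir156defghi, and also in mir156abckl. In mir156abckl the medians of WRKY genes, PR proteins, jasmonate genes and NBS-LRR genes were -0.54, -0.90, -0.31 and -0.09. Of 87 WRKY transcription factors, which act in defence and senescence, 67 were lower in mir156defghi, with a median of -0.36. Past 2-fold, 19 of the 87 (21.8%) were lower and 6 (6.90%) higher, where 6.0% and 5.22% of all genes were. WRKY28 (LOC_Os06g44010) had 4.31 FPKM in mir156defghi and 14.4 in the wild type (log2 ratio -1.75, and -3.84 in mir156abckl), and WRKY24 (LOC_Os01g61080) had 2.52 FPKM in mir156defghi and 7.15 in the wild type (log2 ratio -1.51). WRKY104 (LOC_Os11g02520) was higher, with 10.4 FPKM in mir156defghi and 1.51 in the wild type (log2 ratio 2.79, and -0.83 in mir156abckl).

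Of 47 chitinases, thaumatins and other pathogenesis-related (PR) proteins, which act against microbes, 14 (29.8%) were past 2-fold lower and 8 (17.02%) higher, where 6.0% and 5.22% of all genes were, with a median of -0.50. Their summed FPKM was 4196 in mir156defghi and 6572 in the wild type. LOC_Os12g36830, of the Bet v I family, had 201.4 FPKM in mir156defghi and 692 in the wild type (log2 ratio -1.78, and -3.33 in mir156abckl), and its neighbour LOC_Os12g36850 had 83.8 FPKM in mir156defghi and 319 in the wild type (log2 ratio -1.93). LOC_Os04g39150 of the same family had 29.5 FPKM in mir156defghi and 2.85 in the wild type (log2 ratio 3.37, and 4.26 in mir156abckl), and LOC_Os06g47600, a thaumatin, had 24.8 FPKM in mir156defghi and 3.68 in the wild type (log2 ratio 2.75).

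Of 28 genes of jasmonate synthesis and ZIM domain proteins, 24 were lower, with a median of -0.55. Past 2-fold, 7 of the 28 (25%) were lower and 1 (3.57%) higher, where 6.0% and 5.22% of all genes were. With at least 5 FPKM in the higher genotype, 4 of 21 (19.0%) were lower and 1 (4.76%) higher, against 4.46% and 3.27% of all genes. Jasmonate is a hormone of wounding and defence. LOC_Os06g11240, a 12-oxophytodienoate reductase, had 28.6 FPKM in mir156defghi and 79.5 in the wild type (log2 ratio -1.47, and -1.52 in mir156abckl), and its neighbour LOC_Os06g11210 had 13.6 FPKM in mir156defghi and 50.6 in the wild type (log2 ratio -1.90, and -1.48 in mir156abckl). The gene that was past 2-fold higher was LOC_Os12g37260, described as lipoxygenase 2.1, with 38.1 FPKM in mir156defghi and 6.79 in the wild type (log2 ratio 2.49, and -1.39 in mir156abckl).

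Of 200 cytochrome P450s, enzymes of hormone and secondary metabolism, 49 (24.5%) were past 2-fold lower and 16 (8.0%) higher, where 6.0% and 5.22% of all genes were. Their median was -0.43, and -0.42 in mir156abckl. LOC_Os04g08828 had 0.16 FPKM in mir156defghi and 6.42 in the wild type (log2 ratio -5.34), whereas LOC_Os08g43390 had 23.2 FPKM in mir156defghi and 8.72 in the wild type (log2 ratio 1.41). The NBS-LRR genes, intracellular immune receptors, were closer to the rest, with 23 (10.2%) of 225 past 2-fold lower, 7 (3.11%) higher and a median of -0.13.

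The other hormone classes were mixed. Of 37 SAUR genes, early auxin-responsive genes, 10 (27.0%) were past 2-fold higher and 4 (10.8%) lower. OsSAUR24 (LOC_Os06g04590) had 21.6 FPKM in mir156defghi and 6.47 in the wild type (log2 ratio 1.74, and 1.66 in mir156abckl), and OsSAUR28 (LOC_Os06g48860) had 10.2 FPKM in mir156defghi and 23.4 in the wild type (log2 ratio -1.19, and -0.05 in mir156abckl). Of 28 Aux/IAA genes, repressors of auxin responses, 2 (7.14%) were past 2-fold in each direction, where 5.22% of all genes were higher and 6.0% lower. OsIAA27 (LOC_Os11g11410) had 19.9 FPKM in mir156defghi and 6.98 in the wild type, and OsIAA16 (LOC_Os05g09480) had 21.1 FPKM in mir156defghi and 50.5 in the wild type. Of 6 type-A cytokinin response regulators OsRR3 (LOC_Os02g58350) was past 2-fold higher, with 10.4 FPKM in mir156defghi and 5.13 in the wild type, while all 5 cytokinin oxidases that reached 1 FPKM stayed within 2-fold.

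Among other transcription factors, 12 of 61 NAC genes (19.7%) were past 2-fold lower and 7 (11.5%) higher, where 6.0% and 5.22% of all genes were. LOC_Os09g33490 had 18.2 FPKM in mir156defghi and 72.4 in the wild type (log2 ratio -1.99). Of 16 TCP genes, regulators of organ growth and branching, 4 (25%) were past 2-fold higher and 2 (12.5%) lower. With at least 5 FPKM in the higher genotype, 1 of 9 (11.1%) was past 2-fold in each direction, where 3.27% of all genes were higher and 4.46% lower. The TCP gene LOC_Os02g42380 had 7.96 FPKM in mir156defghi and 3.07 in the wild type (log2 ratio 1.38), and LOC_Os01g55750 had a log2 ratio of -1.22. The MYB, bHLH, bZIP and AP2/ERF classes had medians between 0.00 and 0.08.

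The lipid transfer proteins stood out by their spread in both directions, with 17 of 72 past 2-fold higher (23.6%) and 12 lower (16.7%). LOC_Os10g36090 (LTPL156) had 20.8 FPKM in mir156defghi and 3.80 in the wild type (log2 ratio 2.45, and -0.70 in mir156abckl), and LOC_Os10g40510 (LTPL144) had 44.5 FPKM in mir156defghi and 195.1 in the wild type (log2 ratio -2.13, and 0.03 in mir156abckl). Of 167 heat shock and chaperone genes 13 (7.78%) were past 2-fold higher and 3 (1.80%) lower, where 5.22% and 6.0% of all genes were. With at least 5 FPKM in the higher genotype, 5 of 135 (3.70%) were higher, against 3.27% of all genes. LOC_Os03g16860, of the DnaK family, had 119.9 FPKM in mir156defghi and 47.0 in the wild type (log2 ratio 1.35).

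Among genes with at least 10 FPKM in the higher genotype, the widest ratios were those of genes with under 1 FPKM in one genotype. LOC_Os07g32710, described as a retrotransposon protein, had 132.4 FPKM in mir156defghi and 0.11 in the wild type (log2 ratio 10.17), and LOC_Os03g43100 had 75.02 FPKM in mir156defghi and 0.12 in the wild type (log2 ratio 9.26). Their log2 ratios in mir156abckl were 10.92 and 9.10. LOC_Os04g43090 had 10.8 FPKM in mir156defghi and 0.11 in the wild type (log2 ratio 6.61), and LOC_Os06g13390, described as a SAM dependent carboxyl methyltransferase, had 10.1 FPKM in mir156defghi and 0.15 in the wild type (log2 ratio 6.03). The next widest among higher genes was at a few FPKM in the wild type. LOC_Os01g35330 had 131 FPKM in mir156defghi and 3.85 in the wild type (log2 ratio 5.09, and 1.93 in mir156abckl). LOC_Os08g07100, a terpene synthase, had 16.6 FPKM in mir156defghi and 0.53 in the wild type (log2 ratio 4.97). Its log2 ratio of -2.29 in mir156abckl rests on 0.11 FPKM there and 0.53 in the wild type, both below 1 FPKM.

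At the other end LOC_Os10g21670, described as a dehydration stress-induced protein, had 0.14 FPKM in mir156defghi and 10.3 in the wild type (log2 ratio -6.23, and -1.80 in mir156abckl). LOC_Os04g27980, a glycosyl hydrolase, had 0.38 FPKM in mir156defghi and 15.6 in the wild type (log2 ratio -5.36, and 0.69 in mir156abckl). More abundant genes were also among the 10 lowest ratios: LOC_Os06g39120 had 51.7 FPKM in mir156defghi and 699.6 in the wild type (log2 ratio -3.76, and -3.23 in mir156abckl), and LOC_Os01g71350, a glycosyl hydrolase of family 17, had 35.3 FPKM in mir156defghi and 379 in the wild type (log2 ratio -3.42, and -3.83 in mir156abckl).

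In absolute FPKM, the largest increase was that of LOC_Os01g15270, with 6796 FPKM in mir156defghi and 3605 in the wild type (log2 ratio 0.91, and -0.91 in mir156abckl). The most abundant transcript in both genotypes was the metallothionein gene LOC_Os01g74300, with 20332 FPKM in mir156defghi and 17671 in the wild type. The largest decreases included LOC_Os12g33120, with 2999 FPKM in mir156defghi and 5501 in the wild type, and genes of RALF peptides, secreted signals that alkalinize the apoplast. RALFL26 (LOC_Os10g41980) had 384 FPKM in mir156defghi and 2191 in the wild type (log2 ratio -2.51, and -2.55 in mir156abckl), and RALFL28 (LOC_Os06g29730) had 175.5 FPKM in mir156defghi and 1481 in the wild type (log2 ratio -3.08, and -3.77 in mir156abckl).

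Genes past 2-fold were found on each of the 12 chromosomes. The share that was higher in mir156defghi ran from 4.08% on chromosome 11 to 6.71% on chromosome 4, and the share that was lower from 4.42% on chromosome 3 to 8.88% on chromosome 10. The median log2 ratio of each of them lay between -0.05 and 0.01. Some neighbours shared a direction. A run of 7 SCP-like extracellular protein genes on chromosome 7, from LOC_Os07g03499 to LOC_Os07g03730, was past 2-fold lower throughout, and such close copies could share reads. The longest run, of 9 genes on chromosome 4 from LOC_Os04g10750 to LOC_Os04g11400, was also past 2-fold lower, and 8 of its genes have no described function.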

How the data were processed

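Total RNA from unelongated culms was made into stranded mRNA libraries and sequenced by the authors. Per the labels and the methods, reads were filtered, aligned with HISAT2 to the rice genome (TIGR release 7) and turned into FPKM by Cufflinks 2.2.1, and genotypes were compared with cuffdiff. The deposited table holds 1 FPKM value per genotype over the repeats, scaled by the authors within the comparison. Its columns with the authors' own log2 ratio, p-value and q-value were not used. With no counts or values per repeat, the read depth is unknown and no error or test was computed.

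Ratios were computed from the FPKM columns (pandas 2.3.3, numpy 2.4.6, Python 3.11.15) and drawn with matplotlib 3.10.9. Classes were set by words in the descriptions and gene lists taken from the paper. Members and lists were chosen with earlier results of these data known. Named genes are the SBP-box and GA genes, up to 3 genes per direction in each class with at least 5 FPKM (any member of classes of up to 15 genes), the 10 widest log2 ratios per direction with at least 10 FPKM, the 5 largest differences per direction, the 3 highest values and UBIQUITIN. Others were chosen after their values were seen: the expansins LOC_Os09g29710, LOC_Os10g40720 and LOC_Os05g15690, and the ends of the runs of neighbours. Positions are as the table lists them. The counting was tested on simulated data. None of the gene IDs matched the RefSeq table, so it was not used.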

Additional observations from a re-analysis of the deposited data

Results flagged for a closer look

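Among the genes named by the rules, 8 were past 2-fold in opposite directions in the mutants, each against the same wild-type culms and with 1 pooled value per genotype. The difference between the mutants was not tested for any of them. Many of the named genes were picked for wide ratios in mir156defghi. The share of all genes past 2-fold in opposite directions was not computed, so the count of 8 cannot be set against it. The cytochrome P450 LOC_Os01g72270 had a log2 ratio of 2.56 in mir156defghi (9.62 against 1.63 FPKM in the wild type) and -5.75 in mir156abckl (0.03 against 1.64 FPKM). The lipoxygenase LOC_Os12g37260 had 2.49 in mir156defghi and -1.39 in mir156abckl, and LOC_Os07g05365, the 10 kDa polypeptide of photosystem II, had 4.35 in mir156defghi (22.7 against 1.12 FPKM) and -1.57 in mir156abckl (0.38 against 1.12 FPKM). The opposite calls of LOC_Os01g72270 and LOC_Os07g05365 thus rest on values under 2 FPKM in mir156abckl and the wild type, a level at which ratios spread widely. WRKY62 (LOC_Os09g25070) had 1.05 in mir156defghi and -1.24 in mir156abckl, with 15.9 FPKM in mir156defghi, 3.29 in mir156abckl and 7.72 in the wild type. The NAC genes LOC_Os11g03300 and LOC_Os12g03040 had log2 ratios of 1.25 and 1.25 in mir156defghi and -2.65 and -2.51 in mir156abckl. Reads shared between close copies could tie the values of this pair together, which was not tested. In the other direction, RCLEA8 (LOC_Os05g47940) had -5.68 in mir156defghi and 1.12 in mir156abckl (0.12, 13.9 and 6.35 FPKM in mir156defghi, mir156abckl and the wild type), and the glycine-rich cell wall protein LOC_Os10g31530 had -5.17 in mir156defghi and 1.23 in mir156abckl (0.17, 14.5 and 6.12 FPKM in mir156defghi, mir156abckl and the wild type).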

How the results depend on the processing

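With 1 pooled FPKM per genotype no repeat could be left out. No paired analysis was possible because the result comes from no test and the columns carry no repeat numbers. The limits mattered most for the number of genes past them. A floor of 5 FPKM in the higher genotype left 532 genes higher and 727 lower, 1 FPKM added to both genotypes left 601 and 771, ratio limits of 1.5 and 0.75 gave 2401 and 4119, and limits of 4 and 0.25 gave 249 and 267. For the GA genes, 3 were higher with the floor of 5 FPKM and 3 with 1 FPKM added, against 6. The classes with a median of 0.3 or more were 2 with 1 FPKM added, against 3. The remaining counts moved by less than 1.5 times, among them those without a floor, with centred ratios, with the wild-type FPKM of the mir156abckl table, with genes at 0 counted, and without transposons. SPL17 left the target genes past 2-fold with 1 FPKM added and with the other wild-type column, which left 3. The median of the expansins, -0.69, was 0.06 with the floor of 5 FPKM. No sign was reversed among the genes named by rule, and 21 of 303 crossed the limit with 1 FPKM added. Weakly expressed genes are the least certain, and since the depth is unknown their counting error is too.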

Other observations

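The families below were chosen after their values were seen and are descriptions only. Of 6 GASA/GASR genes with at least 1 FPKM, small secreted peptides named for their regulation by GA, 6 were higher in mir156defghi and 4 were past 2-fold, with a median log2 ratio of 1.66 and a summed FPKM of 263 in mir156defghi and 83.3 in the wild type. GASR3 (LOC_Os03g55290) had 131.8 FPKM in mir156defghi and 38.3 in the wild type, and GASR4 (LOC_Os04g39110) had 70.6 FPKM in mir156defghi and 14.8 in the wild type. Their log2 ratios in mir156abckl were 1.42 and 1.96. Of 18 terpene synthases, enzymes of volatile and defence terpenes, 10 (55.6%) were past 2-fold higher and 4 (22.2%) lower, where 5.22% and 6.0% of all genes were. LOC_Os04g27670 had 130.2 FPKM in mir156defghi and 15.7 in the wild type (log2 ratio 3.05, and -0.96 in mir156abckl), and LOC_Os08g07080 had 10.7 FPKM in mir156defghi and 0.95 in the wild type (log2 ratio 3.49). Of 28 pectinesterases, enzymes that modify wall pectin, 18 were higher, with a median log2 ratio of 0.27. Past 2-fold, 10 of the 28 (35.7%) were higher and 6 (21.4%) lower. Of 25 RALF peptide genes 8 (32.0%) were past 2-fold higher and 8 (32.0%) lower, and their summed FPKM was 1469 in mir156defghi and 4810 in the wild type. RALFL30 (LOC_Os04g31430) was on the higher side, with 22.7 FPKM in mir156defghi and 1.93 in the wild type (log2 ratio 3.56, and 2.95 in mir156abckl).

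Of 14 SCP-like extracellular protein genes 10 (71.4%) were past 2-fold lower and 0 higher, where 6.0% and 5.22% of all genes were. Their median log2 ratio was -1.41. LOC_Os10g11500 had 205.6 FPKM in mir156defghi and 1245 in the wild type (log2 ratio -2.60, and -2.52 in mir156abckl). Of 65 glutathione S-transferases 18 (27.7%) were past 2-fold lower and 7 (10.8%) higher, with a median of -0.45, and LOC_Os09g29200 had 110.8 FPKM in mir156defghi and 231.4 in the wild type. On chromosome 10, glycine-rich cell wall genes were listed at 0 or near 0 in mir156defghi: LOC_Os10g31640, LOC_Os10g31680, LOC_Os10g31710 and LOC_Os10g31720 were at 0, against 4.86, 6.34, 4.18 and 3.97 FPKM in the wild type, and had 1.55, 1.86, 0.40 and 0.48 FPKM in mir156abckl. Others in the same stretch differed from this. LOC_Os10g31620 had 8.79 FPKM in mir156defghi and 3.93 in the wild type, and LOC_Os10g31660 had 21.5 FPKM in mir156defghi and 32.6 in the wild type.

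In all, 37 genes were listed at 0 in mir156defghi with at least 1 FPKM in the wild type, and 21 the other way. THION15 (LOC_Os06g32600), a thionin, had 56.8 FPKM in mir156defghi and was listed at 0 in the wild type.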
